A study of Mus musculus with 3 samples.

Results

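The vascular endothelial growth factor (VEGF) system was examined in freshly sorted lung endothelial cells (ECs) of adult mice through 9 genes: the ligands *Vegfa*, *Vegfb*, *Vegfc* and *Pgf*, the receptor tyrosine kinases *Kdr* (VEGFR2), *Flt1* (VEGFR1) and *Flt4* (VEGFR3), and the co-receptors *Nrp1* and *Nrp2*. They were chosen by gene symbol, and all 9 were found among the 24346 genes of the deposited expression table. The samples were 3 bulk RNA-seq libraries of 1 condition, named S38, S44 and S52 in the labels, from wild type C57BL/6J lungs. The mice were males aged 6 to 8 weeks that had received a labelled antibody to VE-cadherin into the circulation shortly before harvest and no other treatment is stated, and the cells were sorted as CD31+ and VE-cadherin+ after exclusion of CD45+ leukocytes and podoplanin+ lymphatic cells. With a single condition no groups could be compared, so every value is a description of a level or of the spread between libraries. Whether a library came from 1 mouse or from pooled lungs is not stated in the sources used here, so the spread may be partly technical. Values are FPKM, fragments per kilobase of gene and per 1000000 fragments, which are scaled to gene length and so allow levels of different genes to be compared. Where 3 values stand together they are those of S38, S44 and S52 in that order.

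VEGF-A is the main growth and survival signal of blood vessels. It binds VEGFR2, which carries most of the signal in ECs, and binds VEGFR1 more tightly but with weak kinase activity, so that VEGFR1 and its soluble form act largely as a trap. Among the kinases, placental growth factor and VEGF-B bind VEGFR1 only, and VEGF-C acts mainly on VEGFR3 and drives lymphatic growth. The neuropilins present VEGF to the kinases and also receive class 3 semaphorins. In the lung, alveolar epithelium is a known source of VEGF-A, and the alveolar capillary is made of general capillary cells and of aerocytes, large ECs at the gas exchange surface that are known for high *Kdr*.

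The promoters of the receptors of VEGF-A are shown first because *Kdr* and *Flt1*, which lie on the minus strand of chromosome 5, had the highest levels among the kinases and differed in how they varied between libraries. Each sequence is the 250 bases upstream of the annotated RefSeq start on GRCm38.p6, read 5′ to 3′ on the gene's strand, at chr5:75978456-75978705 for *Kdr* and chr5:147726012-147726261 for *Flt1*. Capitals mark GGAA, the core of the sites bound by ETS transcription factors of endothelium, or its reverse complement TTCC.

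Kdr: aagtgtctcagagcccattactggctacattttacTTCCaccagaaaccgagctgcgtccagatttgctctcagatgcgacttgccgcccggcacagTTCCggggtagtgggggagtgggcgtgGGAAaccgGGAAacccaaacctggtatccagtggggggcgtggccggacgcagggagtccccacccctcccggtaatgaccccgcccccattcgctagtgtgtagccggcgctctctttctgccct

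Flt1: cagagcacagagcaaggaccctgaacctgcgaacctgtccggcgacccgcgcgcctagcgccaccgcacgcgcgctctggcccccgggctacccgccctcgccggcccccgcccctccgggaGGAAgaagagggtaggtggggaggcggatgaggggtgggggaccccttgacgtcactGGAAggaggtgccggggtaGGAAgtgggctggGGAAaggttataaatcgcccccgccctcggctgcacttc

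Each of these windows held 4 ETS cores. All 9 genes had a window in the RefSeq table, and 8 of 9 held at least 1 core on either strand, with 6 in *Vegfa*, the most, and 0 in *Pgf*, when the first listed window of a gene was read. Such a short motif is common, since 93.4% of all 32851 promoter windows of that length held it. The GC box GGGCGG was in 9 of 9 first listed windows, against 32.7% of all windows. Of the core letters of hypoxia elements, ACGTG was in 0 of 9 first listed windows (16.6% of all) and GCGTG in 6 of 9 (28.2% of all). A second listed window of *Vegfa*, not counted here, held 1 ACGTG and 1 GCGTG, and that of *Pgf* held neither. These second windows held 1 GC box in *Vegfa* and 0 in *Pgf*. The shares of all windows count every listed window of a gene. These are matches of letters in a short window and show no binding.

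All 9 genes were detected, with a mean of at least 1 FPKM, a level that 48.3% of all genes of the table reached, and each was also above 1 FPKM in every library. A mean of at least 10 FPKM was reached by 6 of the 9, against 25.7% of all genes. The median of the 9 means was 29.7 FPKM, beside 11.2 FPKM over all detected genes. The 9 levels spanned from 2.65 FPKM for *Pgf* to 325.6 FPKM for *Kdr*. *Kdr*, *Nrp1*, *Flt1* and *Vegfa* formed an upper range with means of 133.8 FPKM and more, *Vegfc* and *Flt4* a middle range at 29.7 and 22.4 FPKM, and *Vegfb*, *Nrp2* and *Pgf* a lower range of 6.03 FPKM and less.

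**Figure D1:**
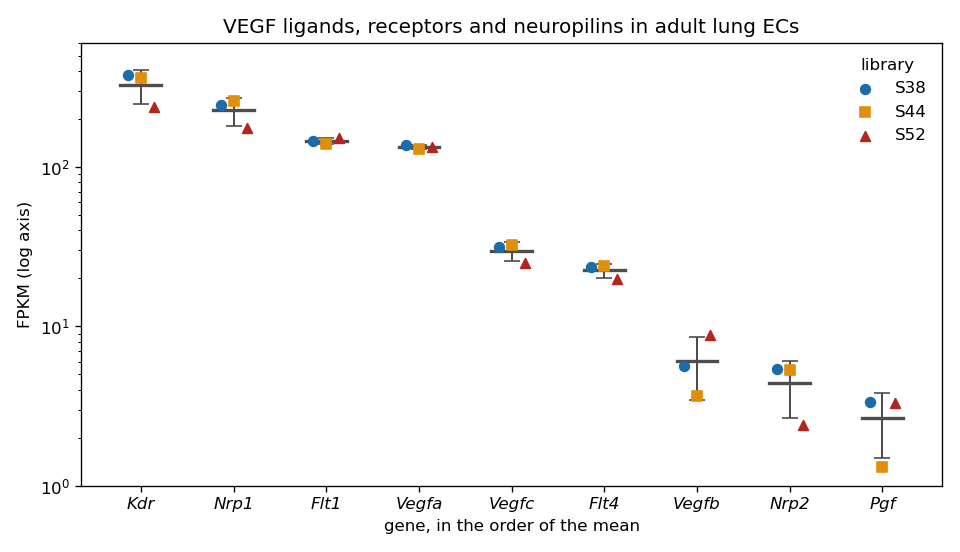
Level of each gene in FPKM on a log axis, in the order of the mean. Points are the 3 libraries S38, S44 and S52, horizontal lines the mean and bars the SD (n = 3). *Kdr* and *Nrp1* were lowest in S52, at 236.7 and 174.8 FPKM, whereas the 3 points of *Flt1* and of *Vegfa* lie close together.

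The receptor kinases were led by *Kdr*, the VEGFR2 gene. *Kdr* (chromosome 5, 75932827 to 75978458 in GENCODE M21 on GRCm38, 30 exons) was at 379.9, 360.4 and 236.7 FPKM, with a mean of 325.6 ± 77.6 FPKM (SD, n = 3). It ranked 321 among all genes, above 98.7% of them. The value in S52 stood below both others, which were close to each other, and was 0.623 times that of S38 and 0.657 times that of S44. *Flt1*, the VEGFR1 gene (chromosome 5, 147561604 to 147726011, minus strand, 30 exons), was at 145.6, 139.6 and 152.2 FPKM, with a mean of 145.8 ± 6.32 FPKM (SD, n = 3). Its coefficient of variation was 4.33%, against 23.8% for *Kdr* and 10.2% for *Flt4*. These values depend on scaling: with libraries rescaled to equal sums *Flt1* varied by 18.3% and *Kdr* by 34.3%, and with median-ratio scaling *Flt1* varied by 7.47%, *Flt4* by 7.08% and *Kdr* by 20.8%. Its transcripts for the membrane and the soluble receptor share 1 row of the table and were not separated. *Flt4*, the VEGFR3 gene (chromosome 11, 49609263 to 49652739, plus strand, 30 exons), was at 23.7, 23.8 and 19.8 FPKM, with a mean of 22.4 ± 2.28 FPKM (SD, n = 3). VEGFR3 is best known from lymphatic vessels but is also made by blood ECs.

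Within a library the ratio of *Flt1* to *Kdr* levels does not depend on how libraries are scaled. It was 0.383, 0.387 and 0.643, so S38 and S44 were nearly equal and S52 stood apart. On the log2(FPKM + 1) scale the mean ratio was -1.12 ± 0.43 (SD, n = 3), and *Kdr* was the higher gene in 3 of 3 libraries. *Kdr* was lower in S52, while *Flt1* differed by at most 1.09-fold between libraries as deposited. Of the summed level of the kinases, *Kdr* made up 69.2%, 68.8% and 57.9%, *Flt1* 26.5%, 26.6% and 37.2%, and *Flt4* 4.31%, 4.55% and 4.85%.

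The neuropilins differed widely in level. *Nrp1* (chromosome 8, 128358604 to 128503363, plus strand, 17 exons), the neuropilin that binds VEGF-A and semaphorin 3A, was at 244.6, 260.1 and 174.8 FPKM, with a mean of 226.5 ± 45.4 FPKM (SD, n = 3). Its value in S52 was again the lowest, at 0.715 times S38 and 0.672 times S44. *Nrp2* (chromosome 1, 62703285 to 62818695, plus strand), the neuropilin of lymphatic and venous ECs that binds VEGF-C, was at 5.43, 5.32 and 2.40 FPKM, with a mean of 4.38 ± 1.72 FPKM (SD, n = 3). S52 was the low library here too, at 0.442 times S38 and 0.451 times S44. The level of *Nrp1* was 45.1, 48.9 and 72.9 times that of *Nrp2*. *Nrp1* followed *Kdr* more closely than *Flt1* did, with a ratio to *Kdr* of 0.644, 0.722 and 0.739, or -0.51 ± 0.11 on the log2(FPKM + 1) scale (SD, n = 3). The exons of *Nrp1* contain 37 bases of the microRNA gene *Mir1903* on the same strand, and no other gene of the annotation shares exon bases with any of the 9 genes.

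Among the ligands, *Vegfa* (chromosome 17, 46016993 to 46032369, minus strand, 7 exons in its longest transcript) had the highest level, at 137.7, 129.4 and 134.2 FPKM, with a mean of 133.8 ± 4.14 FPKM (SD, n = 3). Its coefficient of variation was 3.09% as deposited and 4.22% with median-ratio scaling, the lowest of the 9 genes in both, but 19.9% after rescaling to equal sums, where that of *Flt1* was lower. The level of *Vegfa* was 0.918 ± 0.033 times that of *Flt1* within a library (SD, n = 3). The splice forms of VEGF-A, which differ in how they bind heparan sulfate and neuropilin, are summed in its row. *Vegfc* (chromosome 8, 54077606 to 54187096, plus strand) was at 31.5, 32.6 and 24.9 FPKM, with a mean of 29.7 ± 4.15 FPKM (SD, n = 3), and was somewhat lower in S52. *Vegfb* (chromosome 19, 6982473 to 6987651, minus strand), a ligand tied to fatty acid uptake by endothelium, was at 5.65, 3.66 and 8.79 FPKM, with a mean of 6.03 ± 2.59 FPKM (SD, n = 3). It was highest in S52 and lowest in S44. *Pgf* (chromosome 12, 85166635 to 85177790, minus strand) was at 3.34, 1.32 and 3.28 FPKM, with a mean of 2.648 ± 1.153 FPKM (SD, n = 3), so that S44 stood below the nearly equal values of S38 and S52.

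*Vegfa* accounted for 77.3% of the summed ligand level in S38, 77.5% in S44 and 78.4% in S52, and *Vegfc* for 17.7%, 19.5% and 14.6%. The ligands that bind VEGFR1 alone among the kinases were minor, with 3.17%, 2.19% and 5.13% for *Vegfb* and 1.88%, 0.789% and 1.92% for *Pgf*. The level of *Vegfa* was 41.2, 98.3 and 40.9 times that of *Pgf*. The summed kinases were at 549.1, 523.8 and 408.7 FPKM and the summed ligands at 178.2, 167.0 and 171.2 FPKM, which gave 3.08, 3.14 and 2.39 times more receptor than ligand transcript. VEGF-D, the remaining ligand of this family in mouse, was listed under its older symbol *Figf* at 6.98, 8.63 and 7.42 FPKM.

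**Figure D2:**
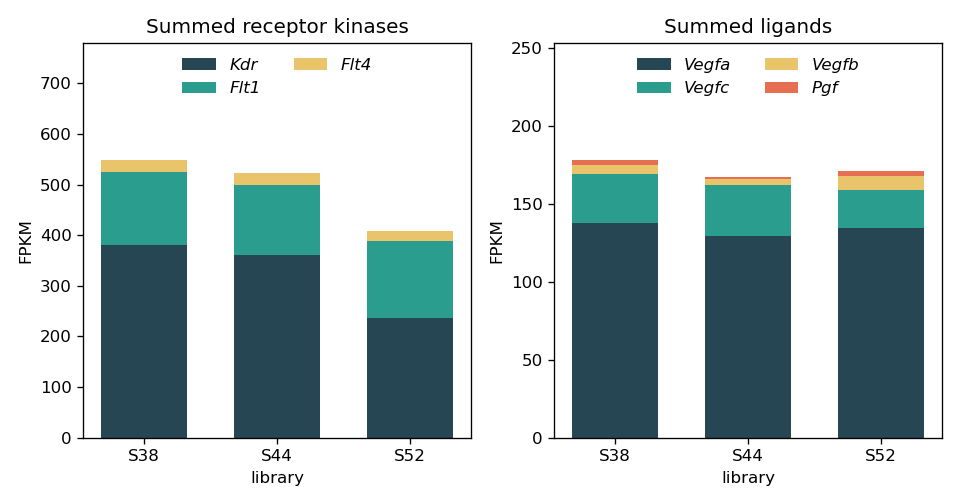
Summed levels in FPKM of the receptor kinases (left) and of the ligands (right), stacked by gene, for each of the 3 libraries. The *Kdr* part is shortest in S52, where the kinases sum to 408.7 FPKM, while the ligand sums lie between 167.0 and 178.2 FPKM.

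The order of the 9 genes was *Kdr*, *Nrp1*, *Flt1*, *Vegfa*, *Vegfc*, *Flt4*, *Vegfb*, *Nrp2* and *Pgf*. Between neighbours in this order, 5 of 8 pairs had library ranges that did not overlap. *Kdr* and *Nrp1* overlapped, because *Kdr* in S52 was below *Nrp1* in S44, although *Kdr* was the higher in each library. *Flt1* was above *Vegfa* by a narrow margin, with 139.6 FPKM as its lowest value and 137.7 FPKM as the highest of *Vegfa*. *Vegfc* and *Flt4* were also close, with 24.9 FPKM as the lowest value of *Vegfc* and 23.8 FPKM as the highest of *Flt4*. In the lower range *Nrp2* overlapped with both of its neighbours: *Vegfb* exceeded *Nrp2* in 2 of 3 libraries, and *Nrp2* exceeded *Pgf* in 2 of 3. *Vegfb* and *Pgf*, which are not neighbours, did not overlap, with 3.66 FPKM as the lowest value of *Vegfb* and 3.34 FPKM as the highest of *Pgf*. A two-sided exact sign-flip permutation test of 3 paired libraries cannot give a p-value below 0.25, so none was made.

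Depth was estimated from the low values of the table, which fall near whole multiples of the worth of 1 fragment, at 38000000, 38900000 and 34000000 fragments. Fragment numbers of a gene were computed from this depth with the length of its longest annotated transcript. If shorter transcripts prevailed, the fragments would be fewer and the counting errors larger. On this estimate the 98.4 fragments of *Pgf* in S44 were the fewest of any of the 9 genes, with a counting error of 10.1%, whereas *Pgf* varied by 43.5% between libraries. For *Vegfb* the counting error was between 5.46% and 7.92% and the variation between libraries 42.9%. For *Kdr* the counting error was at most 0.464%. The differences between libraries were therefore larger than counting error, which is the only error these estimates cover.

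The libraries were not alike in other cell types, and S52 stood apart. The endothelial genes were close in sum, with 10 of 10 markers detected and totals of 7303, 7876 and 7213 FPKM. Single markers differed more, with *Cldn5*, the highest, at 1486, 1732 and 1029 FPKM. Without *Cldn5* the other 9 summed to 5817, 6143 and 6184 FPKM. The sum of 4 platelet genes was 1692, 1345 and 37.96 FPKM. That of 6 alveolar type 2 genes was 3858, 3238 and 779 FPKM, and that of 7 leukocyte genes, of which 6 were detected, 1126, 842 and 179.9 FPKM. Most of the leukocyte sum was *Lyz2*, and without it the other 6 genes summed to 78.3, 62.0 and 14.3 FPKM. None of these markers was listed at 0 in all libraries, and *Cd3e*, of T cells, was listed at 0 in S52. In bulk libraries fewer cells of a type and less RNA per cell cannot be told apart. The part of other cell types in the values of the VEGF genes was not tested.

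Of the 9 genes, 5 were lowest in S52 (*Kdr*, *Nrp1*, *Vegfc*, *Flt4* and *Nrp2*), beside 46.3% of all detected genes, and 4 were lowest in S44 (*Flt1*, *Vegfa*, *Vegfb* and *Pgf*), beside 28.4% of them. The same 5 genes were lowest in S52 after either of 2 rescalings of the libraries. The highest library was less fixed, since *Flt1* was highest in S52 as deposited and highest in S38 when libraries were rescaled to equal sums. A highest library more than 2-fold above the lowest on FPKM + 1 was seen for 1 of the 9, *Vegfb*, a share close to the 12.7% of all detected genes. Without this pseudocount 3 of the 9 exceeded 2-fold, *Vegfb*, *Nrp2* and *Pgf*. The median coefficient of variation was 20.1% over the 9 genes and 17.6% over all detected genes.

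Set against all detected genes, the S52 values of *Kdr* were low but not extreme. On log2(FPKM + 1) its difference was -0.68 from S38 and -0.60 from S44, and 14.5% and 14.9% of detected genes had a lower one. *Nrp2* was further down, at -0.92 and -0.89, with 9.14% and 7.84% of genes below it. *Vegfb* lay at the other end, at 0.56 and 1.07, with 92.1% and 98.4% of genes below it. For *Pgf* it was S44 that differed, by -0.91 from S38, and 1.55% of genes had a lower difference. The median over all detected genes was -0.083 for S52 against S38 and -0.062 against S44. Without S52, the mean of *Kdr* was 370.1 FPKM and that of *Nrp1* 252.4 FPKM.

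**Figure D3:**
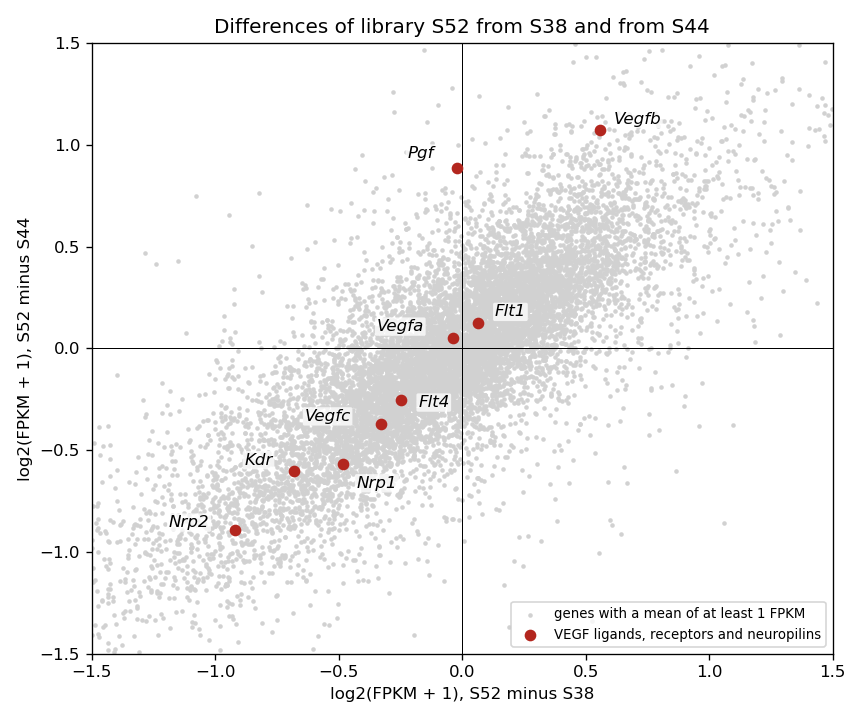
Difference in log2(FPKM + 1) of library S52 from S38 (horizontal) and from S44 (vertical) for detected genes (grey, 11155 inside the axes and 615 outside) and for the VEGF genes (red). *Nrp2*, *Kdr*, *Nrp1*, *Vegfc* and *Flt4* lie at negative values on both axes, and *Vegfb* lies at positive values on both.

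The genes of the 2 alveolar capillary cell types were set beside *Kdr*. All 6 aerocyte genes were lowest in S52, as *Kdr* was, also after both rescalings, beside the 46.3% of all detected genes given above. The same held for all 6 alveolar type 2, all 4 platelet and all 7 leukocyte genes, so it was not particular to aerocyte genes. *Fibin* differed most, at 179.2, 153.0 and 65.6 FPKM. *Car4*, a carbonic anhydrase, was at 855.0, 959.2 and 581.7 FPKM, and *Ednrb*, the endothelin B receptor gene, at 142.9, 155.3 and 75.3 FPKM. *Apln*, the apelin gene, was at 80.2, 81.5 and 48.5 FPKM, so that its S52 value was 0.604 times S38 and 0.595 times S44, near the 0.623 and 0.657 of *Kdr*. The list as a whole spread widely around *Kdr* in these ratios, from 0.366 and 0.429 for *Fibin* to 0.842 and 0.762 for *Prx*. The summed level of the aerocyte genes was 1554, 1664 and 1002 FPKM. Of 6 general capillary genes, 4 were lowest in S38, as deposited and with median-ratio scaling, beside 25.4% of all detected genes, but 0 were lowest in S38 after rescaling to equal sums. *Gpihbp1*, the lipoprotein lipase anchor, was at 660.8, 663.4 and 885.6 FPKM. Their sum was 1949, 2230 and 2363 FPKM. *Lpl* in that list was low in S52, at 81.6, 66.7 and 37.9 FPKM. The part of capillary cell type shares in the *Kdr* values was not tested.

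**Figure D4:**
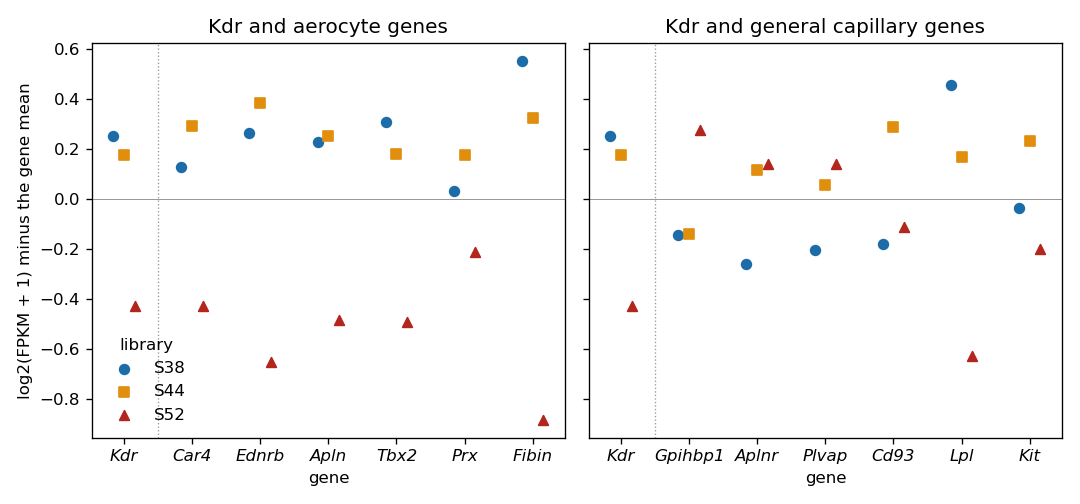
Level of *Kdr* and of aerocyte genes (left) or general capillary genes (right) in each library, as log2(FPKM + 1) minus the mean of the gene over the 3 libraries. The S52 point is the lowest for *Kdr* and for all 6 aerocyte genes, and for 2 of the 6 general capillary genes.

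Lymphatic markers were read beside *Flt4*, *Nrp2* and *Vegfc*, which are lymphatic genes in other settings. *Prox1*, the transcription factor that defines lymphatic ECs, was at 0.132, 0.173 and 0.598 FPKM, and *Pdpn*, the podoplanin gene used to exclude these cells, at 2.39, 1.84 and 3.09 FPKM. *Ccl21a*, the lymphatic chemokine gene, was at 9.41 and 10.3 FPKM in S38 and S44 and listed at 0 in S52, and *Reln* was at 0.071, 0.124 and 0 FPKM. *Mmrn1*, which platelets also make, was at 19.4, 17.6 and 0.236 FPKM. *Lyve1*, which lung blood capillaries also express, was at 539.0, 597.4 and 390.2 FPKM. Of these 6 markers 4 were detected and 4 were lowest in S52, beside 46.3% of all detected genes. *Nrp2* and *Flt4* were lowest in S52 as well, and the summed list was at 570.4, 627.5 and 394.2 FPKM. Most of that sum was *Lyve1*, and without it the other 5 markers summed to 31.4, 30.1 and 3.93 FPKM. *Prox1* and *Pdpn* were highest in S52, against that order.

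Alveolar type 1 genes were read beside *Vegfa*, which alveolar epithelium is known to make. All 6 markers were detected, and 4 of them were lowest in S44, beside 28.4% of all detected genes. Their sum was 360.7, 379.6 and 282.1 FPKM. Most of it was *Hopx*, at 293.7, 332.3 and 200.7 FPKM, and without *Hopx* the sum was 67.0, 47.3 and 81.4 FPKM, highest in S52. *Ager* was at 43.3, 33.4 and 66.0 FPKM, *Cldn18* at 11.6, 5.61 and 7.10 FPKM and *Aqp5* at 10.5, 7.61 and 3.08 FPKM. *Rtkn2* and *Akap5* were highest in S52 as well, at 3.07 and 2.15 FPKM. The alveolar type 2 genes, also of that epithelium, summed to 3858, 3238 and 779 FPKM, beside *Vegfa* at 137.7, 129.4 and 134.2 FPKM. The part of epithelial RNA in the *Vegfa* values was not tested. *Pgf* and *Vegfb*, both lowest in S44 as *Flt1* and *Vegfa* also were, were read beside mural and fibroblast genes. Of these, 10 of 10 were detected and 8 were lowest in S44, beside 28.4% of all detected genes. The other 2 were lowest in S52, among them *Dcn*, at 47.4, 35.5 and 19.8 FPKM. That list summed to 189.9, 116.2 and 153.6 FPKM, with *Acta2*, smooth muscle actin, at 90.3, 46.7 and 79.7 FPKM and *Notch3*, of pericytes, at 4.99, 1.80 and 7.23 FPKM. Without *Acta2* the sum was 99.5, 69.5 and 73.8 FPKM. The part of mural cells in the values of *Pgf* and *Vegfb* was not tested.

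Downstream and around VEGFR2, most genes of the pathway were present. Over the lists of VEGF-D, VEGF-C processing, semaphorins, plexins, VEGFR2 partners, signal transduction and VEGF-A responsive genes, 65 of 72 genes (90.3%) were detected and 55 (76.4%) reached 10 FPKM. The median of the 72 means was 25.6 FPKM. Beside these stand 48.3% of all genes detected and 25.7% at 10 FPKM. More than 2-fold between libraries were 5 of the 65 (7.69%, against 12.7% of all detected genes), and 26 (40.0%, against 46.3%) were lowest in S52.

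All 14 partners and trafficking genes of VEGFR2 were detected. The highest were *Cdh5*, VE-cadherin, which was itself used for the sort, at 877.0, 977.6 and 908.3 FPKM, *Ptprb*, the phosphatase VE-PTP that restrains VEGFR2 and Tie2, at 256.8, 271.8 and 271.3 FPKM, and *Mcam*, a co-receptor, at 222.0, 252.7 and 261.6 FPKM. None of these highest genes was lower in S52 than in both other libraries, in contrast to *Kdr*. Over the whole list, however, 6 of 14 were lowest in S52, a share close to the 46.3% of all detected genes. The lowest in level were *Itgav*, at 5.53, 7.18 and 3.95 FPKM, and *Dab2*, an endocytic adaptor, at 10.2, 9.16 and 9.97 FPKM. *Itgb3*, the integrin subunit that platelets carry in abundance, was at 65.5, 50.5 and 3.48 FPKM and was lowest in S52, as the platelet genes were. *Ptprj*, another phosphatase of VEGFR2, was at 18.0, 11.7 and 4.601 FPKM.

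Of 31 signal transduction genes, 30 were detected. *Hspb1*, the small heat shock protein that is phosphorylated downstream of p38, was highest, at 709.9, 822.5 and 402.0 FPKM, and was one of the 2 that exceeded 2-fold. *Rac1*, a GTPase of cell movement, was at 396.2, 387.1 and 316.6 FPKM and *Mapk3*, the ERK1 gene, at 338.1, 353.6 and 421.0 FPKM. *Prkca*, a protein kinase C gene, was the other beyond 2-fold, at 6.81, 5.27 and 0.808 FPKM. *Sh2d2a*, an adaptor known from T cells, was not detected, at 0.167, 0.162 and 0.0128 FPKM, and *Vav2* was the lowest detected, at 2.41, 1.90 and 3.22 FPKM.

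All 9 VEGF-A responsive genes were detected, and none exceeded 2-fold between libraries. *Nr4a1*, an immediate-early nuclear receptor gene, was at 139.5, 159.3 and 170.5 FPKM, *Rcan1*, the calcineurin inhibitor, at 113.3, 174.1 and 170.6 FPKM, and *Dll4*, the Notch ligand of tip cells, at 86.2, 82.6 and 90.9 FPKM. Of the 9, 4 were lowest in S52, a share close to the 46.3% of all detected genes. They were *Apln*, at 48.5 FPKM there, *Angpt2*, at 16.4, 19.3 and 12.0 FPKM, *Esm1*, at 29.0, 28.3 and 25.8 FPKM, and *Egr3*. After rescaling to equal sums, 3 of the 9 were lowest in S52. The lowest in level were *Kcne3*, at 3.26, 1.199 and 1.23 FPKM, and *Egr3*, at 5.27, 5.49 and 3.50 FPKM.

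VEGF-C is made as a precursor that proteases must cut before it activates VEGFR3 fully. Of 5 processing genes 3 were detected, the proprotein convertases *Furin*, at 21.9, 21.6 and 27.3 FPKM, *Pcsk7*, at 14.9, 14.9 and 16.4 FPKM, and *Pcsk5*, at 9.004, 7.85 and 16.3 FPKM. The extracellular pair that completes the cut was below 1 FPKM, with *Ccbe1* at 0.839, 0.279 and 0.521 FPKM and *Adamts3* at 0.046, 0.010 and 0.067 FPKM.

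**Figure D5:**
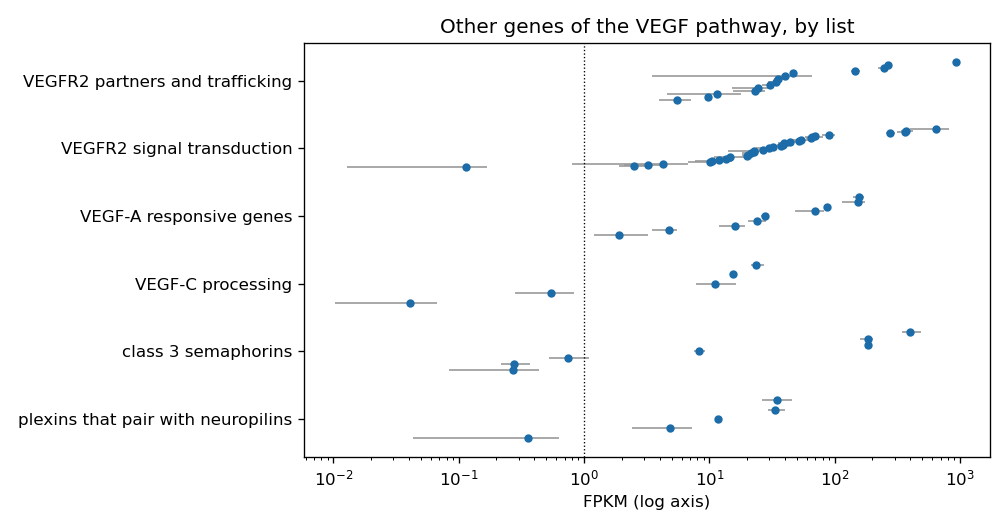
Level in FPKM on a log axis of the other genes of the pathway, 1 row of points per list, ordered within a list by the mean. Points are means of 3 libraries, grey lines run from the lowest to the highest library, and the dotted line marks 1 FPKM. The long line among VEGFR2 partners is *Itgb3*, from 3.48 to 65.5 FPKM.

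The genes whose values were most like those of *Kdr* over the 3 libraries were *Tbx3*, at 70.1, 66.6 and 43.5 FPKM, *Prpf38a*, at 27.5, 26.0 and 16.8 FPKM, and *Pdcl*, at 19.9, 18.8 and 12.0 FPKM. Likeness was the Euclidean distance between log2(FPKM + 1) values centred on the mean of a gene, among the other 6268 genes at 10 FPKM or above, and these 3 distances were 0.00339, 0.00392 and 0.0072. With only 3 libraries such closeness is common, and 126 genes (2.01%) lay within 0.1 of *Kdr*. *Flt1* and *Vegfa*, which varied less than *Kdr*, had 559 and 551 genes within that distance. The nearest to *Flt1* were *Fkbp9*, *Dnajc17* and *Fam98c*, and the nearest to *Vegfa* were *Zfand2b*, *Mrpl18* and *Creb1*.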

How the data were processed

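RNA was sequenced from 3 libraries of sorted adult lung ECs, non-stranded and poly-A selected, so reads of overlapping antisense genes are not separated. The deposited file gives FPKM per gene symbol, made by the authors on mm10. The submitters' processing notes name bcl2fastq 2.17, FastQC 0.11.5, Trimmomatic 0.36, TopHat2 2.1.0 and Cufflinks 2.2.1, without roles. The paper instead describes STAR, HTSeq and edgeR counts, not used here. Values were used unscaled. Totals were 1153890, 1603596 and 1419351 FPKM.

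Means, SDs, ranks and ratios were computed with Python 3.11.15 and pandas 2.3.3. Log values used a pseudocount of 1, which understates differences of low genes. No group test was possible. Depth was estimated, by a method chosen after values were seen, from 7077 genes with 1 basic transcript of 800 to 4000 bp. Of 383, 505 and 242 low values, 77.8%, 77.0% and 72.7% lay within 0.15 of a whole fragment number. The search chose the depth that brought these same values nearest to whole numbers, so the shares are no independent check. The step search and the 2-fold call were tested on simulated data. The alternatives were other thresholds, pseudocounts and library scalings, and leaving out each library. The 9 genes and all lists were chosen with earlier results of these data known. The rule for list genes allowed the highest 3, the lowest 2 and those over 2-fold of each list, of which not all are named. *Pdpn*, *Sema3b*, *Sema3e* and, among VEGF-A responsive genes, *Apln*, *Angpt2* and *Esm1* fall outside it and were chosen after their values were seen. Positions are those of GENCODE M21 on GRCm38 and promoters those of RefSeq on GRCm38.p6. Members with several RefSeq transcripts can carry summed values: among detected genes, 59.6% of those with several curated transcripts, but 0.43% of those with 1, had more than 6 significant digits, as *Vegfa*, *Vegfb*, *Nrp2* and *Pgf* did.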

Additional observations from a re-analysis of the deposited data

How the results depend on the processing

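All 9 genes stayed detected under both rescalings, without any single library and with a threshold of 0.1 FPKM, and 6 were at 10 FPKM or above. The number of genes over 2-fold between libraries, 1 as reported, was 3 with a pseudocount of 0.1, 0 with a pseudocount of 10 and 3 after rescaling each library to a sum of 1000000, and it ranged from 0 to 1 when a library was left out, with 0 without S44 and 0 without S52. The neighbouring pairs that did not overlap, 5 as reported, were 2 after rescaling to that sum, 4 after division by the median ratio to the geometric mean, and between 5 and 7 without a library. The log2 ratio of *Vegfa* to *Pgf*, 5.26 as reported, was 3.51 with a pseudocount of 10. The remaining 32 alternative values of the counts and ratios stayed within 1.5 times the count or within 1 SD. Rescaling to the sum moved 6 of the 9 means by more than 1 SD, with *Kdr* at 240.2 FPKM, and lowered the median log2(FPKM + 1) of detected genes from 3.63, 3.59 and 3.50 to 3.44, 2.98 and 3.05. No paired analysis was possible because there is only 1 group. With 3 libraries of unknown animal number, the precision of every SD is low, and *Pgf* and *Vegfb* rest on at most 335 estimated fragments in a library.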

Other observations

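The other ligands of the neuropilins, class 3 semaphorins, were abundant in the same libraries. *Sema3c* was at 345.5, 362.5 and 489.2 FPKM, above *Kdr* in S44 and S52. *Sema3f*, which binds mainly the product of *Nrp2*, was at 191.3, 201.7 and 160.03 FPKM, and *Sema3g*, known from arterial ECs, at 178.1, 191.1 and 181.9 FPKM. *Sema3b* was lower, at 8.19, 9.23 and 7.50 FPKM, and *Sema3a*, *Sema3d* and *Sema3e* had means below 1 FPKM, so 4 of 7 were detected. The summed semaphorins were at 724.3, 765.7 and 840.1 FPKM, above the summed VEGF ligands in each library.

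Of 5 plexins, the signalling partners of neuropilins for semaphorins, 4 were detected. *Plxna1* was at 45.8, 31.6 and 26.2 FPKM and *Plxnd1*, the plexin of endothelium, at 31.8, 29.1 and 40.1 FPKM. *Plxna2* was at 11.4, 11.9 and 11.7 FPKM. *Plxna4* was the 1 plexin over 2-fold between libraries, at 7.24, 4.9999 and 2.43 FPKM, and *Plxna3* was not detected, at 0.4, 0.629 and 0.043 FPKM.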
